A study of Mus musculus with 6 samples.

Results

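The E2F family, Mybl2 and Foxm1 encode transcription factors that switch the genes of the cell cycle on and off, and their mRNA was examined here in choroid endothelial cells (ECs) of the young and the mature mouse. The 10 genes, E2f1 to E2f8, Mybl2 and Foxm1, were taken by symbol from the 22026 genes listed in each deposited file, and all 10 passed the limit on low values that left 12481 genes for testing. RNA came from VE-Cadherin+ ECs sorted by flow cytometry from the dissected RPE/choroid of 129/B6 mice at postnatal day 5 (P5) and day 30 (P30), with 3 independent isolations per age. Each isolation pooled 14 eyes of 7 animals, so the values are averages over animals, and the P30 mice were of both sexes. The cells of both ages were untreated apart from the intravital antibody. Expression is given as FPKM, a count of sequenced fragments scaled to transcript length and to library size, so that levels of different genes can be compared.

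E2F proteins bind DNA mostly as dimers with a DP protein. E2F1, E2F2 and E2F3 activate genes for DNA synthesis once cyclin-dependent kinases (CDKs) have released them from the retinoblastoma protein. E2F4 and E2F5 lack strong activating function of their own in resting cells and bring the related pocket proteins p107 and p130 to the same promoters, where they hold genes silent. E2F6 represses without a pocket protein, as part of a Polycomb-type complex. E2F7 and E2F8 are atypical members that bind without DP and are themselves made in S phase, when they turn E2F genes down again. MYBL2 (B-MYB) joins the MuvB complex in S phase, and FOXM1 joins it afterwards to drive the genes of mitosis. E2F sites are typical of G1/S gene promoters, whereas a cell cycle homology region (CHR), often with a CCAAT box nearby, is typical of G2/M gene promoters.

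Promoter sequences, 250 bases before to 50 bases after a RefSeq start in the GRCm38.p6 build, were matched for 7 of the 10 genes (E2f1, E2f2, E2f3, E2f6, E2f7, E2f8 and Mybl2), with 9 promoters in all. They were searched on both strands for an E2F site (TTTCCCGC, TTTCGCGC, TTTGCCGC or TTTGGCGC), for a CHR (TTTGAA) and for a CCAAT box (CCAAT). The 3 sequences below, from regulators that fell between the ages, are shown as examples of an upstream window with both an E2F site and a CHR (E2f3), with an E2F site (E2f7) and with a CHR (E2f8). Each is printed on the strand of its gene and ends at the base before the start, with the E2F site and the CHR in capitals.
E2f3, chr13:29986064-29986213, minus strand: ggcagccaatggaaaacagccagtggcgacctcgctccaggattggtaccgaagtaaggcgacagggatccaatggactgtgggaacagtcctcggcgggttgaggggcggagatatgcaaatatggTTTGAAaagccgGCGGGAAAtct
E2f7, chr10:110745189-110745438, plus strand: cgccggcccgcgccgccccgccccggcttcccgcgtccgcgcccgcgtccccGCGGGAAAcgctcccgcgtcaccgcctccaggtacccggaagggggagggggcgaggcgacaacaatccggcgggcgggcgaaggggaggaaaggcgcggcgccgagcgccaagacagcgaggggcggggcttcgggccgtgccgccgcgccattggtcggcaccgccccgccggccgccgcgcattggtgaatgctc
E2f8, chr7:48881597-48881746, minus strand: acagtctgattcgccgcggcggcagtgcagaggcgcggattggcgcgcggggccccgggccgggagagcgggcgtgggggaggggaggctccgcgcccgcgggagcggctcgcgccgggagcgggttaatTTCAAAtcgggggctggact

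E2f3 had 2 matched promoters. In the E2f3 promoter shown the CHR lay 23 to 18 bases before the start. The E2F site, read on the other strand, lay 11 to 4 bases before it. The other E2f3 promoter held none of the searched letters. In E2f7 an E2F site lay 198 to 191 bases before the start, also on the other strand. In E2f8 a CHR on the other strand lay 20 to 15 bases before the start. The E2F site and the CHR did not overlap in any of them. E2f2, whose sequence is not shown, held a CHR 31 to 26 bases before the second of its starts and an E2F site downstream of the first. These letters were not found in the windows of E2f1, E2f6 and Mybl2. The E2f1 window holds letters that can be read as E2F1 coding sequence, so its listed start appears to lie inside the gene. The promoter further upstream was not searched. An E2F site in the searched forms was thus found in the windows of 3 of the 7 genes, against 4.83% of the 8812 tested genes with a matched promoter. A CHR was found in 3 of the 7, against 14.04%. A CCAAT box was present in 4 of the 7, against 43.3%. Over all 32851 promoters in the table the shares were 2.27%, 17.9% and 37.4%. A match describes letters in a window and does not show that a factor binds there. A window without a match may still hold a site, since other forms were not searched. The Mybl2 window, for example, held gcgggaga, close to the searched GCGGGAAA (TTTCCCGC on the other strand).

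Before the results, the purity of the isolations was examined with short lists of marker genes. The 6 endothelial markers Pecam1, Cdh5, Kdr, Tie1, Tek and Erg were present in every isolation. Their summed FPKM lay between 10093 and 11360 in the 6 isolations, the ages overlapped, and 0 of the 6 were called. Cdh5, which encodes the sorting antigen VE-Cadherin, was lower in every P30 isolation. Its log2 difference was -0.66 (limma adjusted p = 0.00205), which is under 2-fold. Kdr and Tie1 were higher in every P30 isolation (log2 difference 0.44 and 0.37, limma adjusted p = 0.0338 and 0.0406). Pecam1, Tek and Erg overlapped between the ages. Of the other cells, the sums of RPE, photoreceptor, pericyte and fibroblast markers were higher in every P30 isolation, and those of macrophage and erythroid markers overlapped between the ages. Of all tested genes 5.82% were called lower and 5.89% higher at P30, by the rule given below. The summed FPKM of 6 RPE markers was 56.8 to 124 at P5 and 418 to 3496 at P30, with 4 of the 5 tested called. That of 6 photoreceptor markers was 2.70 to 6.61 and 39.6 to 322, with 3 of the 4 tested called. That of 6 pericyte and smooth muscle markers was 338 to 1531 and 1891 to 6235, with 1 of 6 called, and that of 6 fibroblast markers was 241 to 508 and 1197 to 2564, with 1 of 6 called. The summed level of 6 macrophage and leukocyte markers overlapped between the ages (557 to 836 at P5 and 317 to 813 at P30), with Ptprc and Emr1 called lower at P30. The erythroid sums also overlapped (165 to 496 and 444 to 1398), with 0 of the 4 tested called and the defining marker Klf1 listed at 0 in all 6 isolations. The part that these other cells play in the levels of the regulators was not tested. In RNA of a sorted population, fewer cycling cells and less mRNA per cell cannot be told apart.

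Of the 10 regulators, 7 fell from P5 to P30, namely E2f1, E2f2, E2f3, E2f7, E2f8, Mybl2 and Foxm1, and 0 rose. E2f4, E2f5 and E2f6 did not pass the test. A gene was called at a Benjamini-Hochberg adjusted p under 0.01 over all 12481 tested genes in limma, fitted to log2(FPKM + 1), together with means of FPKM + 1 that differed 2-fold or more. By the same rule 5.82% of the tested genes were lower at P30 and 5.89% were higher. In each of the 7 genes every P30 isolation was below every P5 isolation, which held for 33% of the tested genes, while the ages overlapped in E2f4, E2f5 and E2f6. Without P5 replicate 2, 4 of the 10 genes were called (E2f1, E2f8, Mybl2 and Foxm1). Without P5 replicate 3, 5 were called, and without P5 replicate 1, 6. Over all tested genes, 726 were called lower at P30 with all 6 isolations. Without P5 replicate 2, 3 or 1 this number was 291, 297 or 427.

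**Figure D1:**
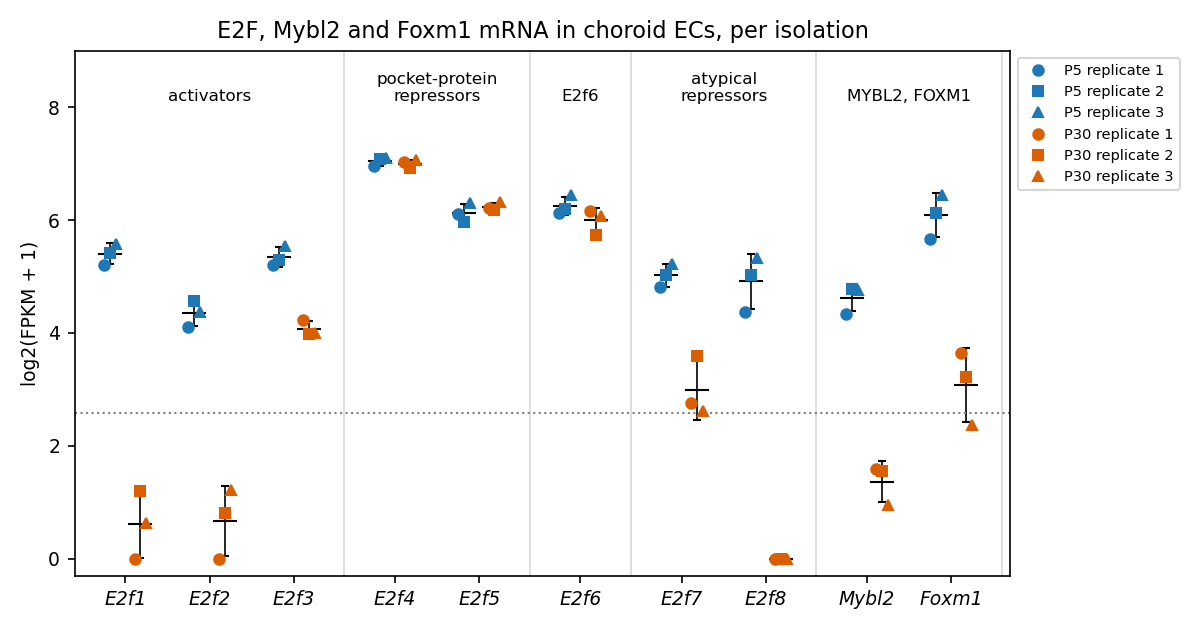
Level of each regulator on the scale of log2(FPKM + 1), with 1 symbol per isolation (blue, P5; orange, P30), bars for the mean and error bars for the SD (n = 3 per age). The dotted line marks an FPKM of 5, and E2f4, E2f5 and E2f6 overlap between the ages whereas the other 7 genes do not.

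Among the activators, E2f1 (mm9 chromosome 2, 154385143 to 154395628) showed FPKM values of 36.1, 41.9 and 46.9 in P5 replicates 1, 2 and 3, and of 0, 1.31 and 0.560 in P30 replicates 1, 2 and 3. It was thus plainly present in each P5 isolation and under an FPKM of 5 in each P30 isolation. The log2 difference, P30 minus P5, was -4.79 (SE 0.37, adjusted p = 0.000245), which is rank 34 from the largest fall among all tested genes. E2f2 (chromosome 4, 135728309 to 135751972) had the lowest level of the activators at P5. Its FPKM was 16.3, 22.6 and 19.6 at P5 and 0, 0.750 and 1.33 at P30, and it fell by 3.67 on the log2 scale (SE 0.43, adjusted p = 0.000895). Without P5 replicate 2 its adjusted p was 0.01145.

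E2f3 (chromosome 13, 29998444 to 30077537) was the activator that stayed well above the limit. Its FPKM is given per gene, so its 2 annotated transcripts cannot be told apart. Its FPKM was 35.9, 38.3 and 45.5 in the P5 isolations and 17.7, 14.9 and 15.0 in the P30 isolations, a fall of 2.51-fold in the mean. At P5 the level of E2f3 (39.9 ± 4.96, SD, n = 3) lay close to that of E2f1 (41.6 ± 5.43), whereas at P30 E2f3 was the only activator above an FPKM of 5 in any isolation. The log2 difference of E2f3 was -1.28 (SE 0.17, adjusted p = 0.00158), and its 95% interval, -1.67 to -0.88, did not overlap that of E2f1, -5.66 to -3.92. Without P5 replicate 2 or 3 its adjusted p was 0.0133 or 0.01225.

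Neither of the pocket-protein repressors was called. E2f4 (chromosome 8, 107821563 to 107829269), the most abundant of the 10 genes at either age, had an FPKM of 123, 135 and 136 at P5 and of 129, 120.3 and 132 at P30. The means were 131 ± 7.37 and 127 ± 6.21 (SD, n = 3), and the ages overlapped. The log2 difference was -0.05 with a 95% interval of -0.28 to 0.19 (SE 0.10, adjusted p = 0.733), so that a change of 2-fold lies outside the interval. With median-of-ratios scaling the difference was 0.04.

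E2f5 (chromosome 3, 14578671 to 14606308), its closest relative, had an FPKM of 68.1, 61.3 and 77.8 at P5 and of 72.9, 71.8 and 78.7 at P30. Its log2 difference was 0.11, with a 95% interval of -0.18 to 0.41 (SE 0.13, adjusted p = 0.503). E2f6 (chromosome 12, 16817771 to 16833549), the Polycomb-linked repressor, had 68.8, 72.1 and 85.6 at P5 and 70.8, 52.5 and 66.5 at P30. The ages overlapped, P30 replicate 2 was the lowest, and the log2 difference was -0.26 with a 95% interval of -0.62 to 0.11 (SE 0.15, adjusted p = 0.223). For both genes the interval excludes a 2-fold change, but not a smaller one.

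Both atypical repressors fell. E2f7 (chromosome 10, 110182495 to 110224440) had an FPKM of 27.1, 31.4 and 36.4 at P5 and of 5.75, 11.04 and 5.11 at P30, a fall of 4.33-fold in the mean with P30 replicate 2 above the others. Its log2 difference was -2.03 (SE 0.30, adjusted p = 0.00237), and leaving out P5 replicate 1, 2 or 3 raised the adjusted p to 0.01039, 0.0167 or 0.0178. E2f8 (chromosome 7, 56121799 to 56136966) had 19.7, 31.6 and 39.3 at P5 and was listed at 0 in all 3 P30 isolations (adjusted p = 0.000252), so no fold is given. A value of 0 can be a failed estimate in files of this kind. E2f8 shares 274 exonic bases with a long noncoding gene on the opposite strand, and the library kit did not mark strand.

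Mybl2 (chromosome 2, 162880423 to 162910424) had an FPKM of 19.3, 26.3 and 26.2 at P5 and of 2.02, 1.93 and 0.930 at P30. All P30 values were under an FPKM of 5, and the mean was 14.7-fold lower than at P5 (log2 difference -3.26, SE 0.32, adjusted p = 0.000479). Foxm1 (chromosome 6, 128312985 to 128325911) had 50, 69.1 and 86.4 at P5 and 11.6, 8.35 and 4.17 at P30, a fall of 8.54-fold in the mean (log2 difference -3.003, SE 0.35, adjusted p = 0.000967). At P5 Foxm1 was the most abundant of the 7 genes that fell, and it was above 0 in each P30 isolation. It shares 144 exonic bases with a neighbouring coding gene, 4933413G19Rik, on the same strand, which was listed at 0 in all 6 isolations.

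Within each isolation, in a comparison added after the values were seen, the other E2Fs were also set against E2f4, as the difference of log2(FPKM + 1). For E2f1 this difference was -1.74 to -1.52 in the P5 isolations and -7.02 to -5.71 in the P30 isolations. The gap was also wider at P30 for E2f2, E2f3, E2f7 and E2f8, with no overlap between the ages (exact two-sided permutation test, p = 0.1 for each of the 5, 0.14 adjusted over the 7 genes compared). With 3 isolations against 3 the test cannot go below 0.1. E2f4 itself differed by only -0.05 between the ages, so the wider gaps restate the falls of the single genes given above. For E2f5 and E2f6 the difference from E2f4 differed between the ages by 0.16 and -0.21 (P30 minus P5), and the ages overlapped (exact two-sided permutation test, p = 0.2 for each).

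**Figure D2:**
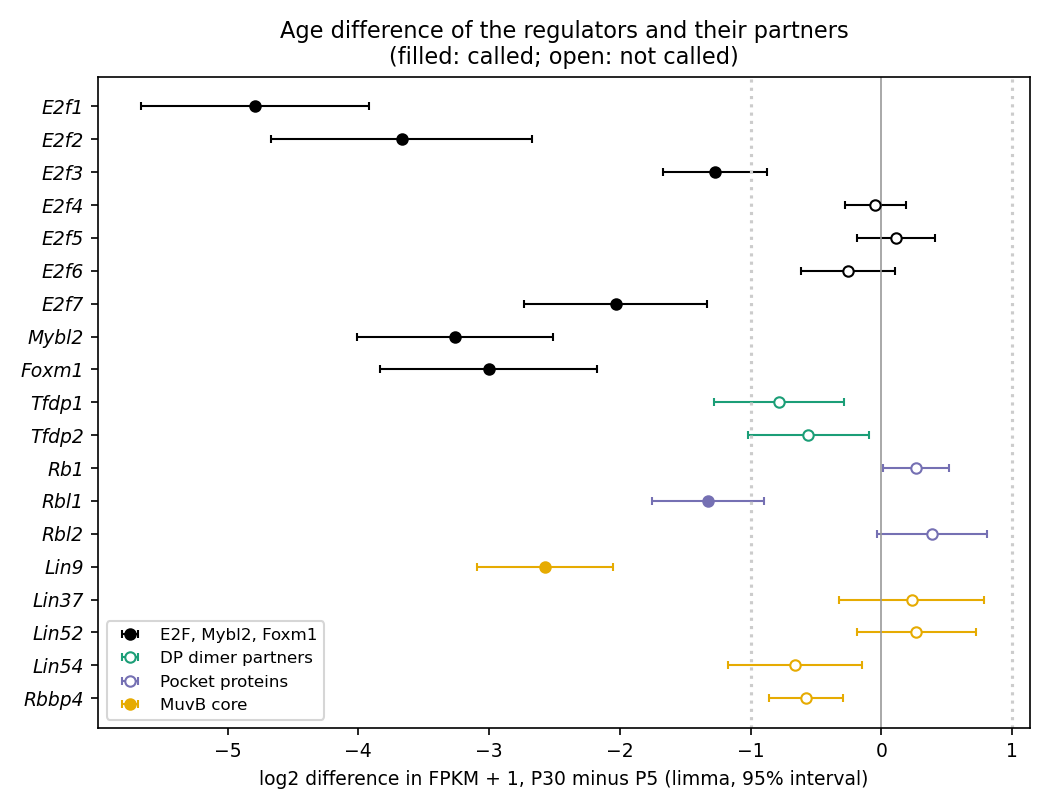
Log2 difference in FPKM + 1, P30 minus P5, of the regulators and of their dimer partners, pocket proteins and MuvB subunits, with 95% intervals from limma (filled symbols, called; open symbols, not called; dotted lines, 2-fold). E2f8 is left out because it was listed at 0 at P30. E2f4, E2f5 and E2f6 sit beside 0, from -0.26 to 0.11, and the called regulators between -4.79 and -1.28.

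The makeup of the E2F mRNA pool differed between the ages. The FPKM of the 8 E2F genes summed to 395, 434 and 487 in the P5 isolations and to 296, 273 and 299.5 in the P30 isolations. The activators E2f1, E2f2 and E2f3 took 22.4% to 23.7% of this sum at P5 and 5.63% to 6.22% at P30. The pocket-protein repressors E2f4 and E2f5 took 43.9% to 48.4% at P5 and 68.2% to 70.5% at P30, although their own summed FPKM was nearly equal, 200.5 ± 12.1 (SD, n = 3) at P5 and 201.7 ± 9.45 at P30. The share of E2f6 was 16.6% to 17.6% and 19.3% to 23.9%, and that of the atypical repressors was 11.8% to 15.5% and 1.71% to 4.05%. Shares of a sum are not independent of each other, and E2f4 and E2f5 gained in share while their levels overlapped. Of the activator FPKM of 16.9 to 17.7 that remained at P30, E2f3 alone made up 14.9 to 17.7.

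**Figure D3:**
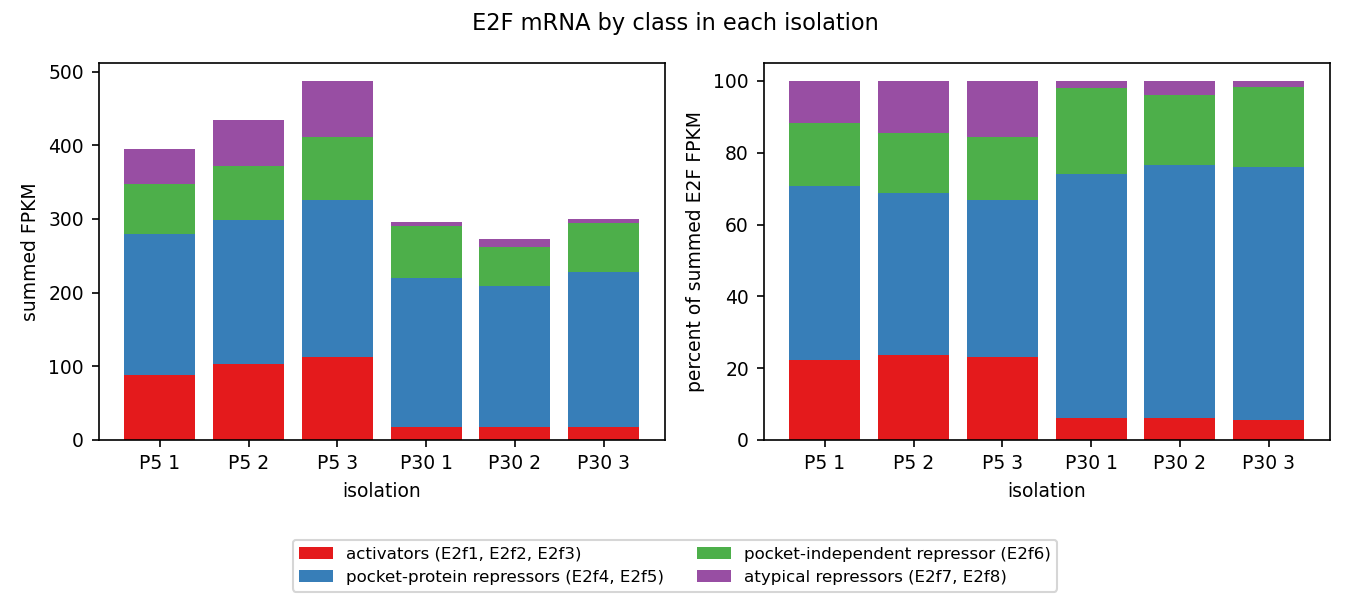
Summed FPKM of the 4 E2F classes in each isolation (left) and the same as a percentage of all E2F FPKM (right), each bar starting at 0. Activators fill 22.4% to 23.7% of the bar at P5 and 5.63% to 6.22% at P30, while the summed FPKM of E2f4 and E2f5 stays between 191 and 214 in all 6 isolations.

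Ordered by mean FPKM, the genes at P5 ran E2f4, E2f6, E2f5, Foxm1, E2f1, E2f3, E2f7, E2f8, Mybl2 and E2f2. Only E2f4 and E2f6, and Foxm1 and E2f1, were neighbours whose ranges over the isolations did not overlap. Compared within each isolation, E2f6 was above E2f5, E2f1 above E2f3, E2f3 above E2f7, E2f8 above Mybl2 and Mybl2 above E2f2 in 3 of 3, whereas E2f5 was above Foxm1, and E2f7 above E2f8, in 1 of 3. At P30 the order was E2f4, E2f5, E2f6, E2f3, Foxm1, E2f7, Mybl2, E2f2, E2f1 and E2f8. Here the first 5 genes stood apart from each other without overlap. Foxm1 and E2f7 overlapped, and E2f7 stood apart from Mybl2. Within the last 4 genes, all under an FPKM of 5 in every isolation, neighbours in the order overlapped. Mybl2, at 0.930 to 2.02, did not overlap E2f8, which was listed at 0.

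Among the 10 dimer partners, pocket proteins and MuvB subunits 2 genes fell, Rbl1 and Lin9, and 0 rose, against 5.82% and 5.89% of all tested genes. The dimer partners Tfdp1 and Tfdp2, which encode DP1 and DP2, had log2 differences of -0.78 (adjusted p = 0.0243) and -0.56 (adjusted p = 0.0589) and were not called. In both genes every P30 isolation was below every P5 isolation, which held for 33% of the tested genes. Tfdp1 was at 87.7 ± 4.95 (SD, n = 3) at P5 and 52.0 ± 14.5 at P30, and Tfdp2 at 61.1 ± 3.07 and 42.1 ± 10.4.

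Among the pocket proteins 1 of 3 was called, against 11.7% of all tested genes called either way. Rbl1, which encodes p107, had an FPKM of 74.9, 87.0 and 94.6 at P5 and of 26.2, 35.1 and 40.3 at P30, and fell by 1.32 on the log2 scale (SE 0.18, adjusted p = 0.00187). The call was lost without P5 replicate 2 (adjusted p = 0.0135) or P5 replicate 3 (adjusted p = 0.0137). The retinoblastoma gene Rb1 had 169 ± 5.86 at P5 and 203 ± 21.8 at P30 (log2 difference 0.26, adjusted p = 0.0894). Rbl2, which encodes p130, had 36.2 ± 0.579 and 48.6 ± 11.04 (log2 difference 0.39, adjusted p = 0.125). In Rb1 and Rbl2 all P30 isolations exceeded all P5 isolations, which was the case in 22% of the tested genes.

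Of the 5 MuvB subunits, only Lin9 was called, against 11.7% of all tested genes called either way. Lin9, a subunit needed for the binding of MYBL2, had an FPKM of 35.5, 39.0 and 46.5 at P5 and of 5.12, 7.46 and 5.31 at P30, a fall of 6.76-fold in the mean (log2 difference -2.58, SE 0.22, adjusted p = 0.000310). Rbbp4, a histone-binding subunit shared with other complexes, had a log2 difference of -0.57 (adjusted p = 0.00929), which is under 2-fold. Lin54, the subunit that reads the CHR, had -0.66 (adjusted p = 0.0479), and Lin37 and Lin52 had 0.23 and 0.27 and overlapped between the ages (adjusted p = 0.464 and 0.303). Of the relatives of the 10 genes, Foxo1 and Foxo3 had log2 differences of 0.04 and 0.27 (adjusted p = 0.818 and 0.367), with overlapping ages. The sign for Foxo1 turned with quantile normalization, at -0.02. Mybl1 (A-MYB) averaged 8.43 ± 1.46 FPKM at P5 against 2.73 ± 2.37 at P30 (log2 difference -1.66, adjusted p = 0.0878). Myb itself was below the limit for testing, at 1.35, 1.69 and 2.35 at P5, and was listed at 0 in all P30 isolations.

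Upstream of the E2Fs, 15 G1 cyclins, CDKs and CDK inhibitors were listed and 13 were tested. Of these 3 fell and 1 rose, against 5.82% and 5.89% of all tested genes. The gene that rose was Cdkn1a, which encodes the CDK inhibitor p21. Its FPKM was 107, 73.9 and 79.4 at P5 and 1338, 1625 and 1380.1 at P30, with a log2 difference of 4.06 (SE 0.16, adjusted p = 3.341e-05). Ccnd1, the cyclin D1 gene, fell from 408 ± 89.1 (SD, n = 3) to 102 ± 10.05 (log2 difference -1.97, SE 0.16, adjusted p = 0.000284). Cyclin E1 (Ccne1) had an FPKM of 18.6, 25.2 and 28.7 at P5 and of 0, 3.16 and 2.89 at P30 (log2 difference -3.29, adjusted p = 0.00459). Cdkn2c, which encodes the CDK inhibitor p18, fell from 103 ± 16.0 to 20.5 ± 12.4 (log2 difference -2.51, adjusted p = 0.00807). Ccne1 and Cdkn2c were not called with a pseudocount of 0.1 (adjusted p = 0.0285 and 0.01019), nor without any 1 of the P5 isolations, where adjusted p lay between 0.01696 and 0.0395. Cdkn2c was also not called without P30 replicate 2 (adjusted p = 0.0131), without a trend in limma (adjusted p = 0.0184) or with no minimum FPKM (adjusted p = 0.01222). Cdk4, Cdk2, Ccnd3 and Cdkn1b passed the adjusted p but not the 2-fold limit, with log2 differences of -0.93, -0.73, 0.50 and 0.48. With quantile normalization Cdk4 was called lower at P30 (log2 difference -1.05, adjusted p = 0.000278).

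Most of the listed targets of the activator E2Fs fell. In a list of 20 G1/S target genes 17 were lower at P30 and 0 higher, against 5.82% and 5.89% of all tested genes. Their median log2 difference was -2.51, against -0.10 over all tested genes. The largest falls were those of Rrm2 (-5.23), a subunit of the enzyme that makes deoxyribonucleotides, Uhrf1 (-4.14), which maintains DNA methylation, Gins1 (-4.06), part of the replicative helicase, and Tk1 (-3.82), thymidine kinase. Rrm2 had an FPKM of 76.2, 103 and 133 at P5 and of 0, 1.69 and 6.52 at P30. The genes not called were Mcm7, Slbp and Pcna. Mcm7, a helicase subunit, had 48.1 ± 5.93 at P5 and 17.8 ± 8.35 at P30 (log2 difference -1.50, adjusted p = 0.0168) and was called without P30 replicate 3 (adjusted p = 0.00525). Slbp, the histone mRNA binding protein, had 145 ± 21.8 and 120 ± 23.3, with overlapping ages. Pcna, the sliding clamp of replication, had an FPKM of 264, 312 and 334 at P5 and of 368, 431 and 362 at P30 (log2 difference 0.35, adjusted p = 0.0582). Genes named as pseudogenes of Pcna (Pcna-ps1 and Pcna-ps2), and likewise Ccnb2-ps, Ccnd3-ps and Cbx3-ps3, are annotated in mm9, and whether reads were shared with them was not tested. Without P5 replicate 2 or P5 replicate 3, 11 of the 20 genes were called.

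All listed targets of MYBL2 and FOXM1 fell. Of 20 G2/M target genes 20 were lower at P30, against 5.82% of all tested genes. Their median log2 difference was -4.79, against -0.10 over all tested genes. It was also -4.79 over the 18 that were not listed at 0 in every P30 isolation. Birc5, which encodes survivin, had an FPKM of 108, 147 and 185 at P5 and was listed at 0 at P30, as was the phosphatase gene Cdc25c. Aurkb, a mitotic kinase, had 61.7, 90.8 and 112 at P5 and 0, 1.05 and 0 at P30 (log2 difference -6.09, adjusted p = 0.000127). Top2a, the topoisomerase that untangles chromosomes, had a log2 difference of -6.06 (adjusted p = 7.908e-05), and Ccnb2, the cyclin B2 gene, of -5.92 (adjusted p = 0.000540). The smallest falls were those of Cdc25b (-1.42, from 67.6 ± 5.17 to 24.6 ± 2.53) and Cdc20 (-2.95, from 101 ± 17.8 to 12.2 ± 1.57). Leaving out 1 isolation left 17 to 20 of the 20 genes called. Summed over the list, the FPKM was 1339, 1865 and 2352 at P5 and 71.8, 73.3 and 79.4 at P30, while that of the G1/S list was 1517, 1876 and 2124 at P5 and 755, 870.0 and 772 at P30. The G1/S sum at P30 included 362 to 431 from Pcna.

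**Figure D4:**
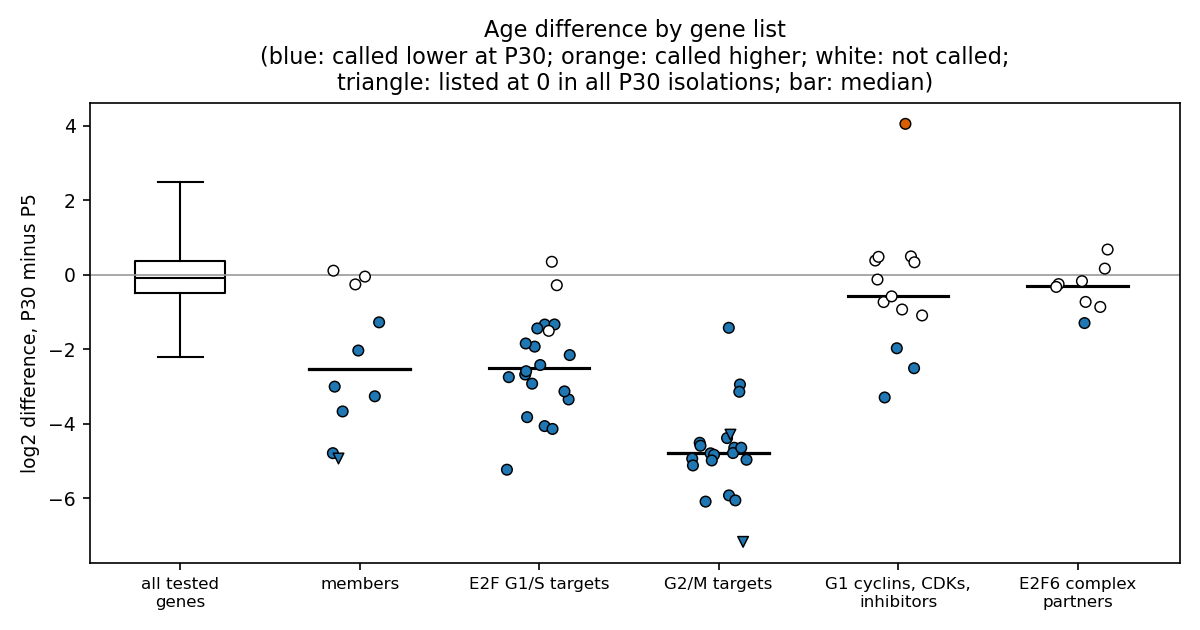
Log2 difference in FPKM + 1, P30 minus P5, of each tested gene of 5 lists beside all tested genes (box, quartiles; whiskers, central 95%; bars, medians; triangles, genes listed at 0 in all P30 isolations, whose position depends on the pseudocount). The 20 G2/M targets lie at a median of -4.79 and the 20 G1/S targets at -2.51, and Cdkn1a, at 4.06, is the only called gene above 0.

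The promoter letters of the target lists differed in the same terms. Of 17 G1/S target genes with a matched promoter 8 held an E2F site (47.1%) and 2 a CHR (11.8%), against 4.83% and 14.04% of the tested genes. Of 15 G2/M target genes 1 held an E2F site (6.67%), 9 a CHR (60.0%) and 14 a CCAAT box (93.3%), the last against 43.3% of the tested genes. The lists hold genes known as targets through such sites, so these shares describe the lists and test nothing. Of the E2F site and the CHR, the E2f3 promoter shown above held both, E2f7 only the E2F site and E2f8 only the CHR. Each of these promoters also held a CCAAT box.

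The partners and germline targets of E2F6 were examined as a separate branch. Of 8 genes of its complex 1 was called, against 11.7% of all tested genes called either way. This was Cbx3, at 144 ± 16.1 FPKM (SD, n = 3) in the P5 isolations and 60.5 ± 22.6 in the P30 isolations (log2 difference -1.29, adjusted p = 0.00640). Cbx3, a heterochromatin protein, was not called when limma was run without a trend (adjusted p = 0.0157). It was also lost without P5 replicate 1, 2 or 3 (adjusted p = 0.0184, 0.0306 or 0.0340) and without P30 replicate 1 or 2 (adjusted p = 0.0115 or 0.0206). The other 7, Mga, Max, L3mbtl2, Pcgf6, Rybp, Ring1 and Rnf2, had log2 differences between -0.86 and 0.68. Germline genes that E2F6 is known to silence were low at both ages. Stag3, a meiotic cohesin gene, had 3.63, 4.61 and 6.41 at P5 and 0.72, 0.4 and 1.22 at P30, below the limit for limma. The ages did not overlap (p = 0.1 in the two-sided exact permutation test, its lower bound). Among the tested genes 33% were lower in every P30 isolation than in every P5 isolation. Smc1b was listed at 0 in 5 of 6 isolations and Tuba3a in all 6, and Slc25a31 was at most 3.49.

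The P5 isolations differed among themselves in these genes. P5 replicate 1 was the lowest isolation in 9 of the 10 regulators, with E2f5 as the exception, and P5 replicate 3 was the highest in 8, with E2f2 and Mybl2 as the exceptions. In 7 of the 10 genes replicate 1 was lowest and replicate 3 highest, an arrangement found in 19.3% of the tested genes, and in all 40 genes of the G1/S and G2/M target lists. The highest P5 isolation exceeded the lowest by 1.99-fold for E2f8, 1.73-fold for Foxm1, 1.30-fold for E2f1 and 1.11-fold for E2f4. The summed G2/M targets differed by 1.76-fold and the summed G1/S targets by 1.40-fold. The summed endothelial markers differed by 1.02-fold, while the pericyte and smooth muscle markers were 1531, 753 and 338 in P5 replicates 1, 2 and 3, the opposite arrangement. The macrophage and leukocyte sums, 836, 783 and 557, had that arrangement too. The fibroblast sums were 381, 241 and 508, and the RPE, photoreceptor and erythroid sums were lowest in replicate 2 and highest in replicate 1. Genes that vary together are not independent observations, and the part of the other cells in these differences was not tested. At P30 no arrangement of the isolations was shared by more than 2 of the 10 genes.

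**Figure D5:**
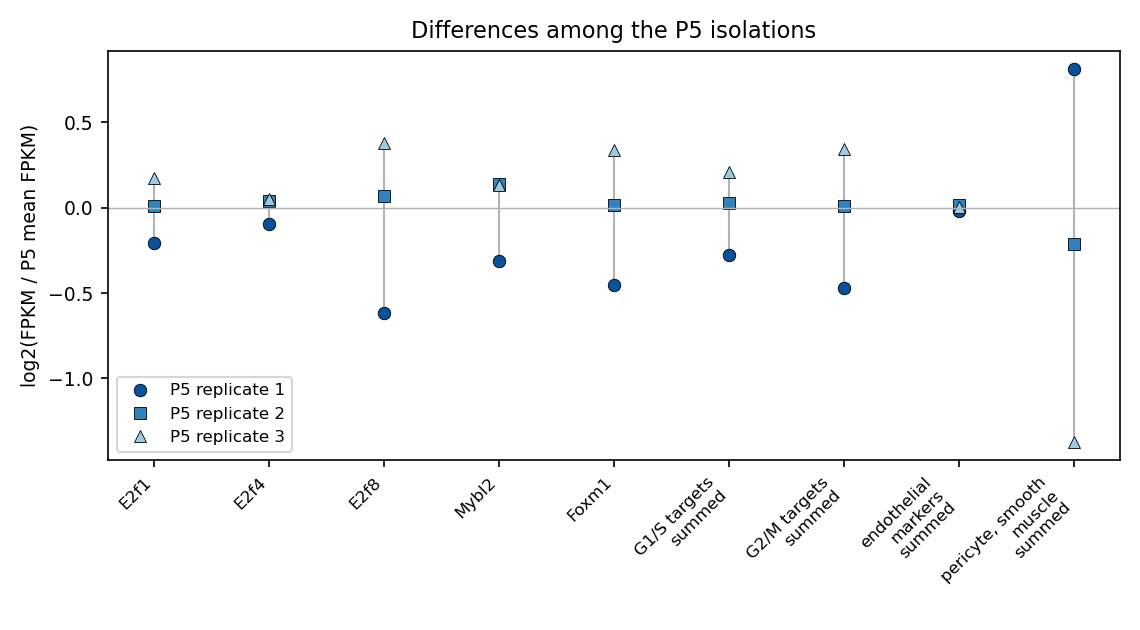
Log2 of the FPKM in each P5 isolation relative to the mean of the 3 P5 isolations, for 5 regulators and 4 summed gene lists. P5 replicate 1 is lowest for the regulators and the targets and highest for the pericyte and smooth muscle markers, and the endothelial markers differ by 1.02-fold between the highest and the lowest isolation.

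Likeness of pattern was measured as the root mean square difference between centred profiles of log2(FPKM + 1) over the 6 isolations, in which a smaller value is a closer pattern. The 3 closest of 12471 genes outside the regulators are named for each. Those of E2f1 were Ttk, Melk and Diap3 (0.12 to 0.22), those of E2f2 were Rad54l, Ndc80 and Mastl (0.13 to 0.24), and those of E2f3 were Myh10, Dnmt1 and Cdh4 (0.05 to 0.08). For the genes that were not called, E2f4 lay next to Vmp1, Actg1 and Ccdc59 (each 0.03), E2f5 to Plekha3, Eif2ak4 and Pppde2 (0.04 to 0.07), and E2f6 to Wdr8, 5830433M19Rik and Gramd1c (0.04 to 0.06). E2f7 lay next to Pop1, Mthfd2 and Kif24 (0.09 to 0.15), and E2f8 to Cdca8, Ube2c and Ccna2 (0.13 to 0.18), of which Ube2c and Ccna2 are in the G2/M list. Mybl2 lay next to Cd276, Itga2 and Brip1 (0.16 to 0.20) and Foxm1 to Wasf1, 2700099C18Rik and Gen1 (0.12 to 0.15). Among the regulators, E2f4 and E2f5 were the closest pair at 0.13. Among the 7 that fell, Foxm1 and Mybl2 were closest at 0.25, with Mybl2 at rank 14 for Foxm1 among all tested genes, followed by E2f1 and E2f8 at 0.40, with E2f8 at rank 34 for E2f1. The profile holds 3 isolations of each age, so genes with a like age difference lie close to each other whatever they encode.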

How the data were processed

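RNAseq of sorted choroid ECs was analysed, with 3 isolations at P5 and 3 at P30, grouped by the sample titles. Alignment by the authors used TopHat and the mm9 genome. Their CuffLinks run corrected for GC content, scaled to the upper quartile and produced the deposited FPKM, 1 value per gene symbol. CASAVA 1.8.2 is named in the submitters' processing notes. Versions of TopHat and CuffLinks and the gene annotation are not given in the sources used here. No counts were used, so depth is unknown and no counting interval is given. Ratios of low FPKM values between isolations did not pile up at single steps (at most 4.58% of genes in a bin of 0.05 on the log2 scale).

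Differences were tested on log2(FPKM + 1), a scale that understates the change of low genes, by lmFit and eBayes (trend on) in limma 3.58.1 under R 4.3.3. Genes whose mean FPKM reached 5 in either age were kept. The fit was tested on simulated data. Summaries were made in Python 3.11.15 (scipy 1.17.1, numpy 2.4.6, pandas 2.3.3). All 10 regulators are named, with every gene of lists of up to 5 genes, and in longer lists the 4 largest called changes, called genes of the minority direction and, for the targets, genes not called. The other genes named beside them, and the comparisons with E2f4, were added after values were seen. The members and lists were chosen with earlier results of these data known. Replicate numbers were not used to pair the isolations in the main fit. Positions are those of GENCODE vM1 on mm9, matched by symbol, and promoters are from RefSeq on GRCm38.p6. The isolations are described as independent. The limma p-values set the age difference against the spread between them, which limma estimates partly from the other tested genes.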

Additional observations from a re-analysis of the deposited data

How the results depend on the processing

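The 7 calls among the 10 regulators were the same in number with pseudocounts of 0.1 and 5, a minimum mean FPKM of 1, no minimum, no trend, quantile normalization, median-of-ratios scaling and a replicate block, and 0 regulators were higher at P30 in any setting. Leaving out 1 isolation gave 4 to 7 called regulators, 291 to 754 genes lower and 396 to 849 genes higher at P30 (726 and 735 with all 6). The low counts came from leaving out P5 isolations (427, 291 and 297 genes lower without P5 replicate 1, 2 and 3). It gave 0 to 1 called pocket protein, 2 to 4 genes of the G1 list, 0 to 1 of the E2F6 complex, and 11 to 18 of the G1/S targets. A pseudocount of 0.1 left 2 genes of the G1 list (3 with no minimum or no trend, 5 with quantile normalization, against 4), no trend left 0 of the E2F6 complex, and no minimum made 1 relative (Myb) pass. The log2 difference of E2f4 turned to 0.03965 with median-of-ratios scaling and that of Foxo1 to -0.01839 with quantile normalization. Leaving out an isolation gave ranges across 0 for Cdkn1c (-0.2435 to 0.07745), L3mbtl2 (-0.42 to 0.00096) and Foxo1 (-0.02018 to 0.1342), none of them called. The cause of these shifts was not tested.

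With the replicate block, the pairing being taken only from the numbers in the sample titles, 524 genes were lower and 585 higher at P30, 7 regulators were lower, and the calls of Cdc6 and Pola1 were lost (adjusted p = 0.0106 and 0.0104 in limma). Same-numbered isolations had correlations of -0.09 to -0.03 in their deviations from the age means. Such correlations cannot show whether these isolations shared a batch. FPKM values under 5, among them the P30 values of E2f1, E2f2, E2f8 and Mybl2, are limited by a depth that is unknown.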
